A study of Homo sapiens with 8 samples.

Results

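The 40 genes described here encode the machinery of autophagy and the proteins of the lysosome, and all of them had a value on the arrays, out of 19775 genes with a probe set of 1 gene symbol. They were chosen by name from the platform's gene table and read from 104 probe sets, which are groups of short oligonucleotides that each measure 1 stretch of a transcript. The arrays compared 2 human cell lines, MM1S and OPM1 by their labels. Each was untreated, or exposed in culture to 5 nM of Zalypsis and collected once 15 to 20% of the cells were dying. Zalypsis is a DNA-binding antitumour compound of marine origin. MM1S is a plasma cell line from multiple myeloma. OPM1 is also the name of a myeloma line, but the cells so labelled had low SDC1 and high B-cell markers, given below. Each of the 4 groups held 2 arrays of the HG-U133 Plus 2.0 design, 8 in all. The labels name no genotype, no treatment time and no vehicle, and they do not state whether both arrays of a group had cultures of their own. The p-values below therefore reflect array-to-array spread alone, and that spread may be technical.

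Autophagy wraps cytoplasm in a new membrane, the autophagosome, and delivers it to the lysosome for digestion. A kinase complex starts the process, a lipid kinase complex marks the membrane with phosphatidylinositol 3-phosphate, and conjugation enzymes fix ATG8-family proteins to the membrane, where cargo receptors such as p62 bind. The lysosome supplies membrane glycoproteins, acid hydrolases and the proton pump, and the transcription factor TFEB binds the sequence CACGTG and its longer forms in the promoters of many of these genes. Myeloma cells make large amounts of immunoglobulin and are known to rely on protein disposal, autophagy included.

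Some facts of the arrays touch the results. The summed signal of 9 plasma cell markers was 26717 to 37374 in MM1S and 4082 to 6004 in the cells labelled OPM1. There the defining marker SDC1 (CD138) lay at 6.56 to 14.0. CD38 alone of the list was higher in untreated OPM1, at 400 and 578 against 61.1 and 47.3 in untreated MM1S. The summed B-cell markers (6 of 7 genes had a value) were 7952 and 8912 in untreated OPM1 and 4550 and 3535 in treated OPM1, against 142 to 199 in MM1S. The name OPM1 follows the label, and the identity of these cells was not tested. Poly-A control RNAs, added during labelling, read 299.7 and 448 on the OPM1 control arrays and 1862 and 1349 on the treated ones, against 19.7 to 25.7 in MM1S, and the upper quartile of all signals was 77.5 and 78.7 on the treated OPM1 arrays against 101 to 115 elsewhere. OPM1 control array 1 stood apart in its end bias: GAPDH read 2.26 times and ACTB 5.80 times as high at the 3' end as at the 5' end, against at most 1.06 and 2.62 on the other arrays. In such bulk RNA, fewer cells of a kind and less RNA per cell cannot be told apart.

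CACGTG is bound by TFEB and by related factors, so it does not mark TFEB alone. Sequence and change of level can be set side by side in the 6 lysosomal members whose bases before the start site carried this hexamer. They are NEU1 (chr6:31862822-31863071, minus strand), MCOLN1 (chr19:7522374-7522623, plus strand), CTSA (chr20:45891085-45891334, plus strand), CTSD (chr11:1763928-1764177, minus strand), ATP6V0D1 (chr16:67481158-67481407, minus strand) and LAMP1 (chr13:113296989-113297238, plus strand). Each run gives the 250 bases upstream of the start site, 5′ to 3′ on the gene's strand, from RefSeq on the assembly GRCh38.p14, with CACGTG in capitals.
NEU1: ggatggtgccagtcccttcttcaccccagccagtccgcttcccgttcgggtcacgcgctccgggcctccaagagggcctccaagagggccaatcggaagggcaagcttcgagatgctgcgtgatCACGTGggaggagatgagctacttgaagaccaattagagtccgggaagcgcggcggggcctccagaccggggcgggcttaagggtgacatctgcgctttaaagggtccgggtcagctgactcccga
MCOLN1: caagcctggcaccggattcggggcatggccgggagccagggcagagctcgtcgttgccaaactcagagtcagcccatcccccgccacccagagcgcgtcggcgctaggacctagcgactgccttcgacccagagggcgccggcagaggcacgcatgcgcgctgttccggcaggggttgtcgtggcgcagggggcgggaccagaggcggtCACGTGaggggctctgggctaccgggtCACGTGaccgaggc
CTSA: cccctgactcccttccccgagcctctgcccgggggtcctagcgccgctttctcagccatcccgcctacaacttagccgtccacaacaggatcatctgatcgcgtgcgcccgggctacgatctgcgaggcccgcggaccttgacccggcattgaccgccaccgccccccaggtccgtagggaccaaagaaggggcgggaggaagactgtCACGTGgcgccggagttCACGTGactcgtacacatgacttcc
CTSD: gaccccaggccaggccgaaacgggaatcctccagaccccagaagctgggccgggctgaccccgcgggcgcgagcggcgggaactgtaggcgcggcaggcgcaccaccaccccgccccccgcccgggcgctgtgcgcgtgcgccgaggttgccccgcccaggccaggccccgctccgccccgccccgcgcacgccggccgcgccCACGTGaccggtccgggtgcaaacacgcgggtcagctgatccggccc
ATP6V0D1: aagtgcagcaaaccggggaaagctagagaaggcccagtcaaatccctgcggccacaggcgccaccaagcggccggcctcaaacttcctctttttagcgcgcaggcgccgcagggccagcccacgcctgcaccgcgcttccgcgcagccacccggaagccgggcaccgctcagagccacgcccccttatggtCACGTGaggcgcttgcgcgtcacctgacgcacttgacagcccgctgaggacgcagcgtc
LAMP1: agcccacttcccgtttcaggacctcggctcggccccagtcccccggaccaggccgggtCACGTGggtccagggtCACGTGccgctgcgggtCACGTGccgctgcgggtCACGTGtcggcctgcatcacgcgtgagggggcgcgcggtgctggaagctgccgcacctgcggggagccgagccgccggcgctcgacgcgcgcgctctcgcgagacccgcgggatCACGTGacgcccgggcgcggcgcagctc

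A promoter was found for 34 of the 40 members, and 8 of them (23.5%) held CACGTG in these 250 bases, which reads the same on both strands. The share was 9.0% of 9627 tested genes and 6.49% of 27305 promoters in the table. Besides the 6 shown, ATG14 and ATG3 held 1 copy each. LAMP1 held 5 copies, MCOLN1 and CTSA 2 each, and NEU1, CTSD and ATP6V0D1 1 each, at 126, 47 and 59 bases upstream of the start. The longer palindrome TCACGTGA, which contains CACGTG, was present in LAMP1, MCOLN1, CTSA and ATP6V0D1, 11.8% of the members against 1.77% of tested genes and 0.89% of all promoters. A match describes the letters only and shows no binding.

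Members with CACGTG were mostly higher in OPM1 after Zalypsis on the authors' scaling, while with poly-A scaling, described further on, NEU1 alone of the 6 that rose kept a positive change. Of the 8, 6 rose in OPM1 (ATG14, MCOLN1, NEU1, CTSA, CTSD and ATP6V0D1), ATG3 fell and LAMP1 was not called, with a median log2 change of 0.68. Among the 26 members without it, 10 rose and 8 fell. Across all 866 tested genes with CACGTG, 22.5% were higher and 44.9% lower in OPM1, so the hexamer by itself did not go with higher levels over the array. In MM1S, 2 of the 8 members rose (MCOLN1 and NEU1) and 0 fell, against 15.0% and 23.1% of all genes with the hexamer.

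Zalypsis shifted the set in both directions in both lines. A change was called where limma's adjusted p over all 11865 tested genes was under 0.05, and all 40 members passed the filter that left out the dimmest 40% of genes. In MM1S, 5 members rose (ATG12, ATG16L1, MCOLN1, NEU1 and GLA), 8 fell and 27 were not called. Over all tested genes 16.4% were higher and 21.1% lower, so the 5 higher members are near that share, as are the 8 lower ones. In OPM1, 17 members rose and 14 fell, where 25.4% of all genes were higher and 38.5% lower. The median log2 change of the members was 0.07 in MM1S and 0.18 in OPM1, beside 0.02 and -0.07 over all tested genes. Without MM1S control array 2 and without MM1S Zalypsis array 2 the count of higher members in MM1S was 3, and without MM1S Zalypsis array 1 it was 2.

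By the brightest probe set of each gene, ATG12, ATG16L1, MCOLN1 and NEU1 (4 members) rose in both lines, and RB1CC1, PIK3C3, UVRAG, WIPI1, ATG5, TFEB and LAMP2 (7 members) fell in both. LAMP2 is the exception to read with care, since its other 3 probe sets rose in MM1S and 2 of them rose in OPM1. Over all tested genes 9.55% were higher in both lines and 17.6% lower in both, so the members' shared calls are near those shares. No member (0) was called in opposite directions. Such genes were rare on the whole array too: 1.85% rose in MM1S but fell in OPM1 and 0.43% did the reverse. The members' count of 0 is therefore near those shares. OPM1 added 13 rises and 7 falls that MM1S did not show at the threshold, beside 15.4% and 19.0% of all genes, so the 7 falls are near that share. MM1S added 1 rise (GLA) and 1 fall (ATG7), beside 5.03% and 3.11% of all genes. In neither line were 7 members called (ATG13, BECN1, WIPI2, ATG10, NBR1, LAMP1 and CTSL), beside 28.0% of all genes. The comparisons in the 2 lines use different arrays. By the study's own rule, a change of over 2-fold in the group means with no test, 1 member was higher and 5 lower in MM1S, beside 3.77% and 9.90% of all genes. The same rule gave 4 higher and 11 lower members in OPM1, beside 11.2% and 26.7%.

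How the arrays are scaled decides the sign of most OPM1 rises. Quantile normalization gave 11 higher and 8 lower members in MM1S, with 23.5% and 19.8% of all genes, and 23 higher and 12 lower in OPM1, with 38.8% and 32.7%. Scaling each array to its poly-A controls moved the median log2 change of all genes in OPM1 from -0.07 to -1.68, and then 0 members were called higher and 38 lower in OPM1, where 0.573% of all genes were higher and 92.3% lower. Of the 17 members that rose on the authors' scaling, NEU1 alone (0.43) kept a positive change there. Whether equal amounts of the controls were added to each sample is not known. Which scaling gives the true sign was therefore not tested, here or wherever poly-A values are given. On the MM1S arrays these controls lay at background, so no value scaled this way is read for MM1S or for the difference between the lines. Under the authors', the quantile and the poly-A scaling, the 17 were all above the median of all genes in OPM1 and the 14 that fell all below it. This was largely fixed in advance, since each scaling moves the genes of an array together, so it adds no support to the calls. "Rose" and "fell" stand for the authors' scaling throughout.

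**Figure D1:**
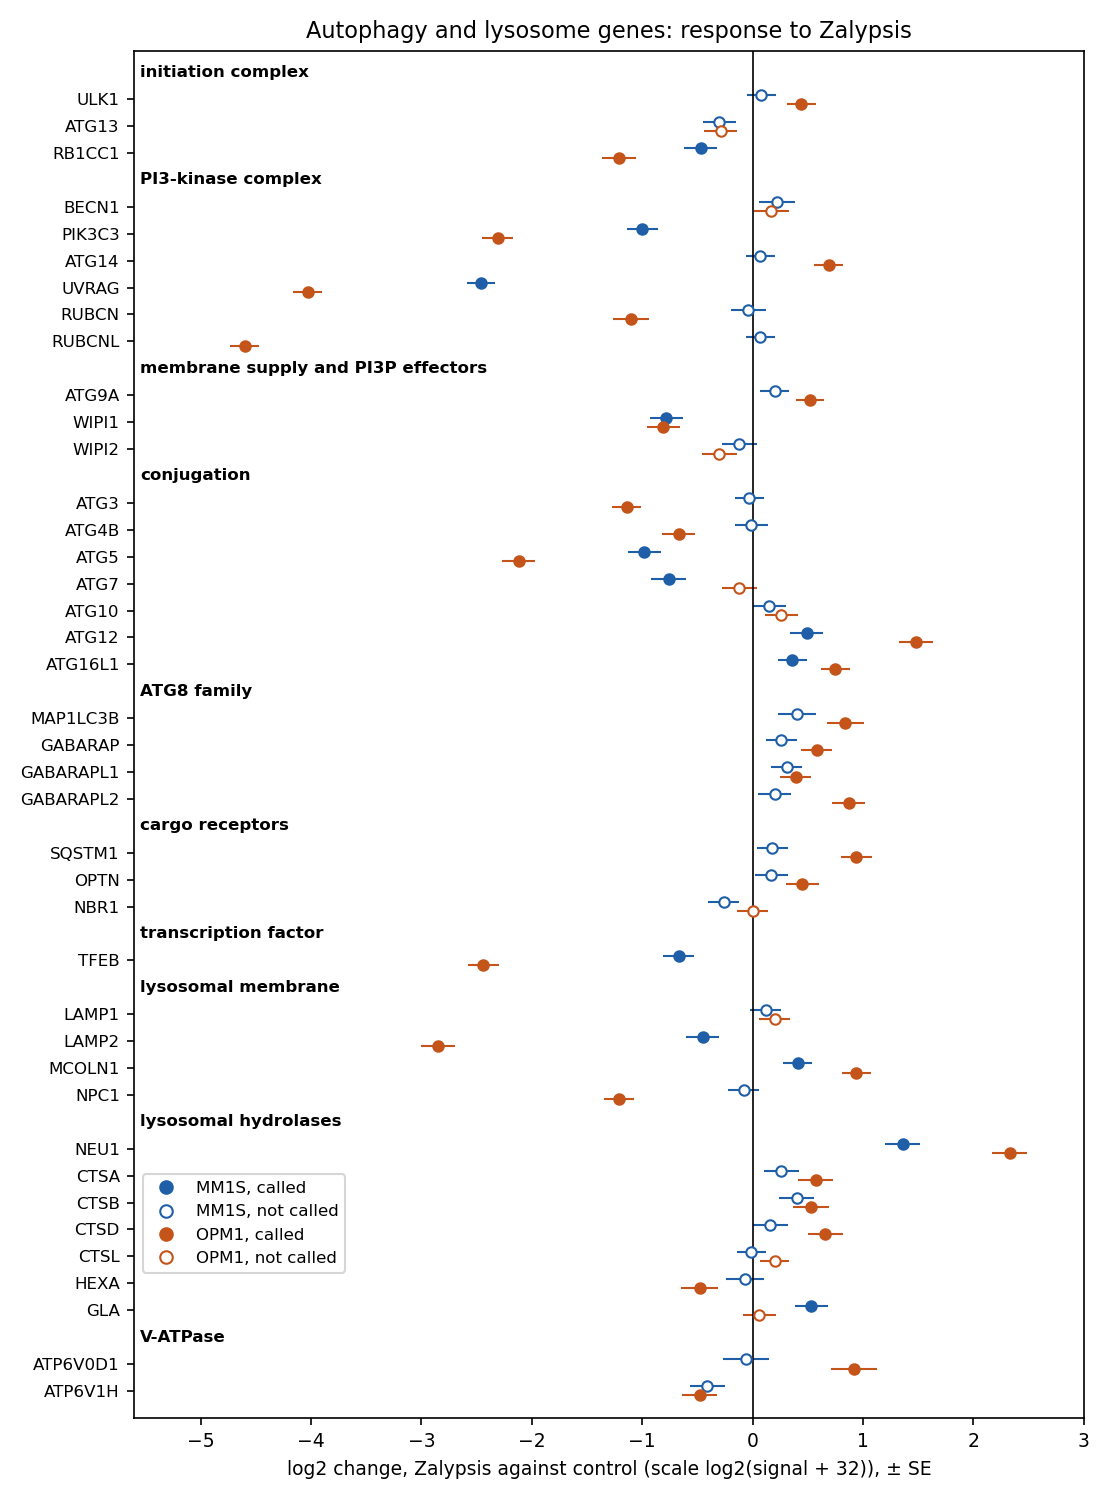
The horizontal axis is the log2 change of Zalypsis against control on the log2(signal + 32) scale, with a row for each of the 40 genes grouped by role; points are the difference of 2 arrays against 2 and bars the standard error of the fit, blue for MM1S, orange for OPM1, filled where called. In OPM1, NEU1 lies furthest right at 2.33 and RUBCNL furthest left at -4.60, and the 17 filled orange points right of 0 read lower with poly-A scaling, NEU1 excepted.

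Of the 3 genes of the initiation complex, RB1CC1 fell in both lines. RB1CC1 (FIP200) is the scaffold that holds the complex together, and it read 872 and 807 on the MM1S control arrays and 612 and 582 after Zalypsis, a log2 change of -0.47 ± 0.15 (adjusted p = 0.0185). In OPM1 it read 668 and 705 untreated and 248 and 312 treated, -1.21 ± 0.15 (adjusted p = 3.7e-07). Treated and control arrays did not overlap in either line, but the MM1S call was lost without MM1S control array 1, Zalypsis array 1 or Zalypsis array 2 (adjusted p of 0.0782, 0.0721 and 0.113). ULK1, the kinase itself, was dim, at 39.0 and 37.7 in untreated OPM1, and rose to 69.0 and 58.6 (0.44 ± 0.13, adjusted p = 0.0054; 0.0616 without OPM1 Zalypsis array 1), while in MM1S its change was 0.08. ATG13, which links ULK1 to the scaffold, was not called, at -0.30 in MM1S and -0.29 in OPM1, though without MM1S control array 2 its MM1S change was called at -0.48 (adjusted p = 0.0419). Its probe set 203364_s_at rose in OPM1 (0.78, adjusted p = 5.8e-04).

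The PI3-kinase complex held the deepest falls. UVRAG, the subunit that directs the complex towards endosomes and autophagosome maturation, read 219 and 227 in untreated MM1S and 16.2 and 12.7 after Zalypsis (-2.46 ± 0.13, adjusted p = 1.2e-12). In OPM1 it went from 817 and 716 to 18.4 and 14.9 (-4.03 ± 0.13, adjusted p = 3.1e-16), so both treated groups ended under the mean signal of 27.25 that served as the filter, from untreated levels that differed 3.44-fold. PIK3C3 (VPS34), the catalytic subunit, fell from 283 and 243 to 123 and 107 in MM1S (-1.0 ± 0.14, adjusted p = 7.3e-06). In OPM1 it fell from 435 and 432 to 50.7 and 73.9 (-2.31 ± 0.14, adjusted p = 4.2e-12).

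Inhibitory and accessory partners of the complex were called in OPM1. RUBCN (Rubicon), which restrains the complex, read 740.1 and 625 in untreated MM1S and 739.7 and 587 after Zalypsis, and these ranges overlap. Its second probe set, 212735_at, fell in MM1S from 179 and 174 to 133.3 and 119.6 (-0.40, adjusted p = 0.0341 among probe sets). In OPM1 the brightest fell from 369 and 405 to 142 and 187 (-1.10 ± 0.16, adjusted p = 3.9e-06). RUBCNL (Pacer), a related protein that promotes autophagosome maturation, lay at 2.59 to 7.23 on the 4 MM1S arrays, near the floor, and at 3355 and 3378 in untreated OPM1, where Zalypsis took it to 119 and 97.5 (-4.60 ± 0.13, adjusted p = 1.9e-16). No fall could be seen in MM1S from such a level. ATG14, which targets the complex to the site of autophagosome formation, rose in OPM1 from 76.4 and 58.5 to 136 and 120.3 (0.69 ± 0.13, adjusted p = 6.3e-05) and read 52.7, 52.3, 56.7 and 56.5 on the MM1S arrays. BECN1 (Beclin 1), the regulatory core subunit, was not called, at 0.22 ± 0.16 in MM1S and 0.17 ± 0.16 in OPM1. With quantile normalization it was called higher in both (adjusted p of 0.0242 and 0.003), and in OPM1 also with the mean of its probe sets (0.0185) and at 208945_s_at (0.47, adjusted p = 0.0278). The 6 genes thus gave 0 rises and 2 falls in MM1S and 1 rise and 4 falls in OPM1.

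Among the genes of membrane supply, WIPI1, which binds the lipid that the kinase makes, fell in both lines. Its brightest probe set read 569 and 503, then 306 and 291 in MM1S (-0.78 ± 0.15, adjusted p = 2.8e-04). In OPM1 it was dimmer, at 61.8 and 48.1, and went to 26.9 and 9.68 (-0.81 ± 0.15, adjusted p = 7.0e-05). Its other probe set, 203827_at, fell by -1.10 in MM1S and -0.54 in OPM1. ATG9A, a transmembrane lipid scramblase that brings membrane to the growing autophagosome, rose in OPM1 from 112 and 130.4 to 186 and 188 (0.52 ± 0.13, adjusted p = 0.0018) and had a change of 0.20 in MM1S. WIPI2, which recruits ATG16L1 to the lipid, was not called in either line, at -0.12 and -0.30. Its OPM1 change was called without OPM1 control array 1 (adjusted p = 0.0378).

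The conjugation genes split along one complex. ATG12 and ATG5 are joined to each other and bind ATG16L1 to form the enzyme that fixes ATG8 proteins to lipid, and ATG12 and ATG16L1 rose in both lines whereas ATG5 fell in both. ATG12 read 472 and 516 in untreated MM1S and 677 and 732 after Zalypsis (0.49 ± 0.15, adjusted p = 0.013). In OPM1 it went from 506 and 571 to 1625 and 1485 (1.48 ± 0.15, adjusted p = 1.2e-08). ATG5 fell from 859 and 709 to 396 and 367 in MM1S (-0.98 ± 0.15, adjusted p = 2.3e-05) and from 693 and 668 to 119.8 and 145 in OPM1 (-2.12 ± 0.15, adjusted p = 5.2e-11). The 3 probe sets of ATG5 fell in both lines, by -0.98 to -1.08 in MM1S and -1.16 to -2.12 in OPM1. ATG16L1 was dimmer, rising from 23.5 and 30.8 to 42.0 and 45.5 in MM1S (0.36 ± 0.13, adjusted p = 0.0308) and from 64.8 and 54.7 to 119 and 125 in OPM1 (0.75 ± 0.13, adjusted p = 2.4e-05). Both MM1S rises were fragile: ATG12 lost its call without MM1S control array 1 or Zalypsis array 2 (adjusted p of 0.0602 and 0.109). ATG16L1 lost it without MM1S control array 1, Zalypsis array 1 or Zalypsis array 2 (0.208, 0.0772 and 0.135), and it was not called with the mean of its probe sets (0.464). In OPM1 both rises turned to -0.56 and -0.79 with poly-A scaling.

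The other conjugation enzymes differed between the lines. ATG3, the conjugating enzyme for ATG8 proteins, read 2478 and 2311 untreated and 2362 and 2319 treated in MM1S, and fell in OPM1 from 1471 and 1465 to 636 and 664 (-1.14 ± 0.13, adjusted p = 1.3e-07). ATG4B, the protease that primes and releases ATG8 proteins, read 135 to 149.9 on the MM1S arrays and fell in OPM1 from 591 and 569.8 to 305 and 408 (-0.67 ± 0.15, adjusted p = 4.3e-04). ATG7, the activating enzyme, was dim and fell in MM1S from 45.2 and 45.3 to 11.5 and 15.7 (-0.76 ± 0.16, adjusted p = 5.7e-04). In OPM1 it read 57.1 and 54.0 untreated and 67.3 and 33.3 treated, and those arrays overlap. Without OPM1 Zalypsis array 1 its OPM1 change was called at -0.42 (adjusted p = 0.0319). ATG10, the conjugating enzyme for ATG12, was not called from its brightest probe set, at 0.15 and 0.26.

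The 4 ATG8-family genes, whose products coat the autophagosome, rose together in OPM1, by 0.39 to 0.87, and with poly-A scaling all 4 read lower, by -1.49 to -1.20. MAP1LC3B (LC3B), the usual marker of autophagosomes, read 1014 and 1307 in untreated OPM1 and 2079.8 and 2085 after Zalypsis (0.84 ± 0.17, adjusted p = 1.5e-04). GABARAPL2 (GATE-16) went from 1065 and 1066 to 2034 and 1915 (0.87 ± 0.15, adjusted p = 2.2e-05), and GABARAP from 1298 and 1279 to 1934 and 1941 (0.58 ± 0.14, adjusted p = 0.0011). GABARAPL1 had the smallest rise, from 121 and 119 to 140.0 and 198 (0.39 ± 0.14, adjusted p = 0.0218), and it lost its call without OPM1 control array 2 or Zalypsis array 2 (0.0519 and 0.355). In MM1S 0 of the 4 were called on the authors' scaling, with changes of 0.20 to 0.40. With quantile normalization MAP1LC3B, GABARAPL2 and GABARAP were called higher there (adjusted p of 0.0125, 0.0198 and 0.0219). The closest to the threshold was MAP1LC3B, at 651 and 590.2 untreated and 982 and 699 treated (0.40 ± 0.17, adjusted p = 0.0649), which was called without MM1S Zalypsis array 2, OPM1 control array 1 or OPM1 control array 2 (0.0173, 0.0381 and 0.0389), as GABARAP was without MM1S control array 1 (0.0217).

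Of the cargo receptors, SQSTM1 and OPTN rose in OPM1 and NBR1 did not. SQSTM1 (p62), which links ubiquitinated cargo to ATG8 proteins and is itself degraded by autophagy, read 819 and 635 in untreated OPM1 and 1426 and 1397 treated (0.94 ± 0.14, adjusted p = 4.5e-06). In MM1S it was bright throughout, at 3431 and 3071 untreated and 3816 and 3568 treated (0.18 ± 0.14, adjusted p = 0.335). A second, dimmer probe set of SQSTM1, 244804_at, rose in both lines, by 1.05 in MM1S (458 and 352 to 890 and 837) and by 1.70 in OPM1 (63.0 and 52.0 to 244 and 273). OPTN (optineurin) rose in OPM1 from 127 and 149 to 191 and 210.1 (0.45 ± 0.15, adjusted p = 0.013; 0.114 without OPM1 control array 1 and 0.0978 without Zalypsis array 2). Its other probe set fell there, by -0.96, so OPTN has no single direction. NBR1 read 112 and 116 against 105 and 123 in OPM1, where the arrays overlap, and had a change of -0.26 in MM1S.

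Whether the level of TFEB bears on the members with CACGTG was not tested. TFEB, the transcription factor for lysosome and autophagy genes, fell in both lines. It read 75.9 and 60.3 in untreated MM1S and 34.1 and 27.2 after Zalypsis (-0.67 ± 0.14, adjusted p = 5.2e-04). In OPM1 it went from 458 and 354 to 52.4 and 44.1 (-2.44 ± 0.14, adjusted p = 1.1e-12). Its second probe set, 221866_at, fell too, by -0.51 and -1.53. These are mRNA levels, and TFEB is known to be controlled mainly by its place in the cell, which arrays do not measure.

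**Figure D2:**
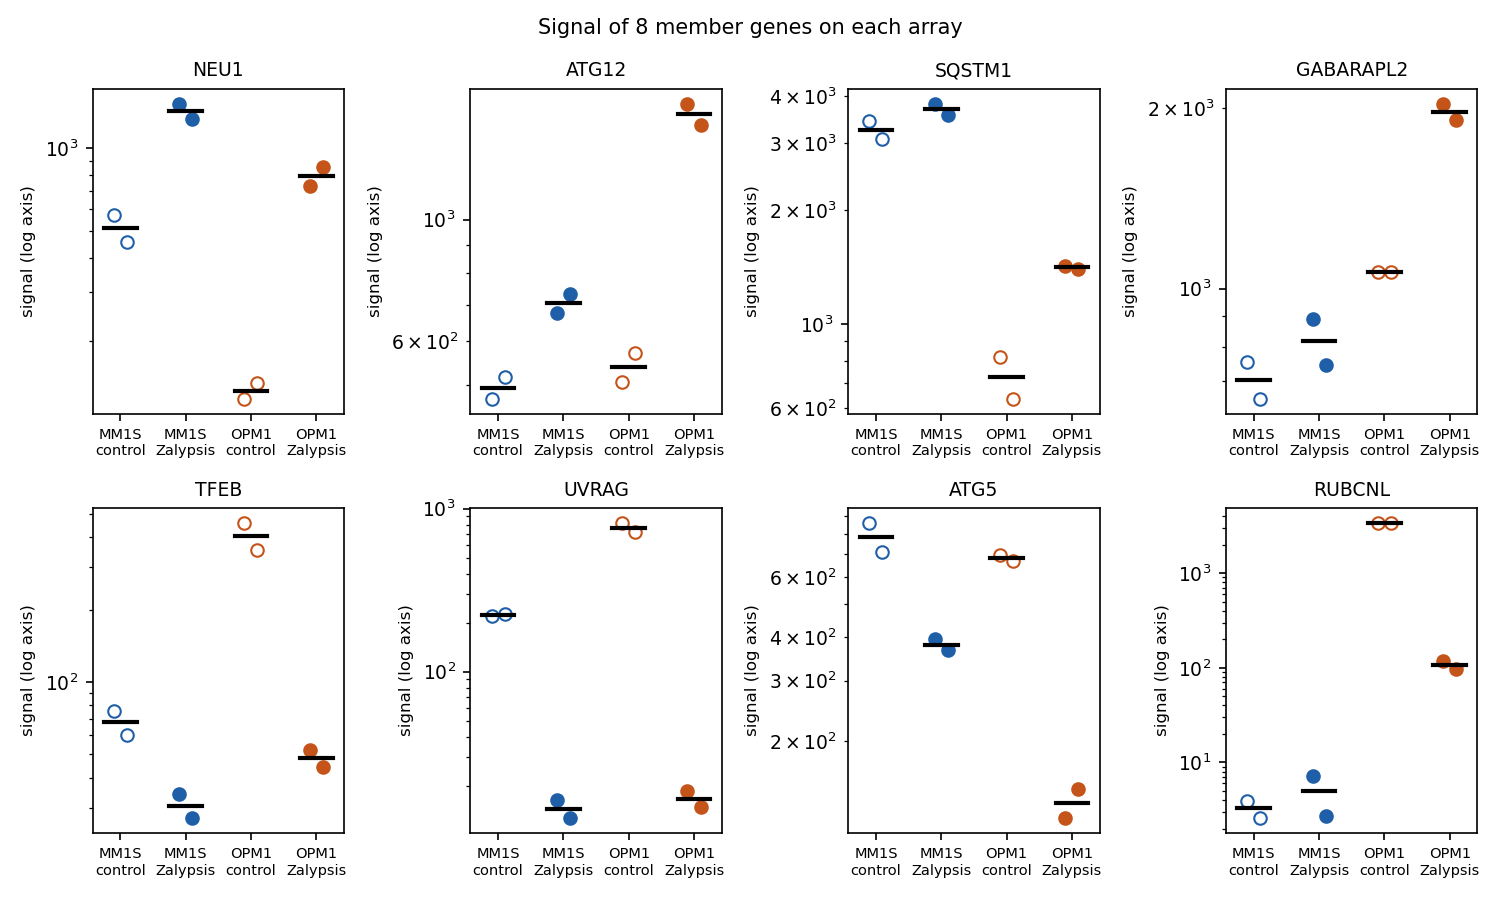
Each panel plots the signal of 1 gene on a log axis of its own for the 8 arrays in 4 groups, open points for control and filled for Zalypsis, with a line at the mean of 2 arrays. NEU1 and ATG12 lie higher in both treated groups (with poly-A scaling ATG12 reads lower in OPM1), UVRAG, TFEB and ATG5 lie lower in both, and RUBCNL is near the floor in MM1S and falls from 3367 to 108 in OPM1.

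LAMP2, a major glycoprotein of the lysosomal membrane whose alternative ends give 3 known protein forms, was measured by 4 probe sets that moved in opposite ways. The brightest, 200821_at, read 1044 and 1097 in untreated MM1S and 816 and 731 after Zalypsis (-0.45, adjusted p = 0.0315 among probe sets), and in OPM1 1029 and 824 fell to 95.7 and 104 (-2.85, adjusted p = 1.8e-09). The probe set 203042_at rose instead, from 521 and 431 to 1315 and 1008 in MM1S (1.23, adjusted p = 4.3e-05) and from 196 and 186 to 467 and 455 in OPM1 (1.14, adjusted p = 2.4e-05). The third, 203041_s_at, rose from 396 and 354 to 707 and 662 in MM1S (0.82, adjusted p = 3.9e-04) and from 119 and 132 to 320.4 and 323 in OPM1 (1.17, adjusted p = 4.5e-06). The fourth, 226671_at, rose in MM1S from 119 and 130 to 290 and 251 (0.95, adjusted p = 6.3e-05) and read 94.0 and 88.0 against 72.2 and 79.9 in OPM1 (-0.19, adjusted p = 0.234).

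Within each line the treated and control arrays did not overlap at any of the 4 LAMP2 probe sets. With poly-A scaling the rises of 203042_at and 203041_s_at in OPM1 turned to -0.76 and -0.64. On the authors' scaling LAMP2 thus has no single direction in either line. The fall of 200821_at is the one that stood for the gene, and in MM1S the gene's call (adjusted p = 0.0239) was lost without MM1S control array 2, Zalypsis array 1 or Zalypsis array 2 (0.0835, 0.0576 and 0.171). The mean over all 4 probe sets was called higher in MM1S, at 0.64 (adjusted p = 1.0e-03), and was -0.18 in OPM1 (adjusted p = 0.17). No table used here places the probe sets on the transcript, so which LAMP2 forms they read was not tested.

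**Figure D3:**
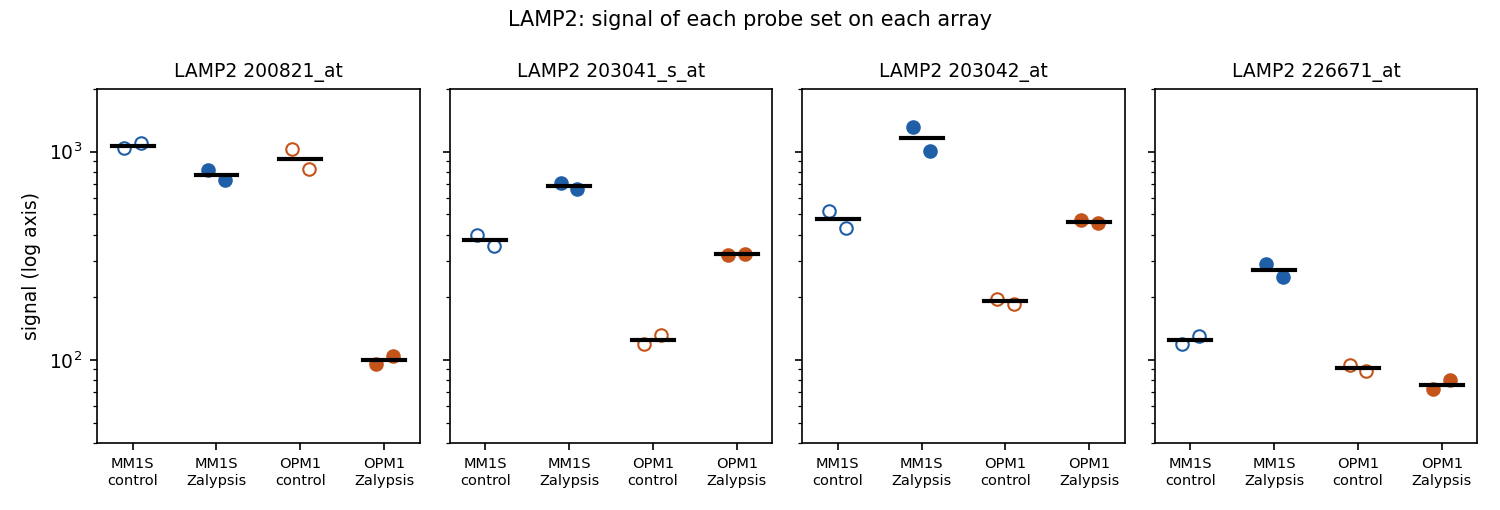
The 4 panels plot the signal of each LAMP2 probe set on a shared log axis for the 8 arrays, open points for control and filled for Zalypsis, with a line at the mean of 2 arrays. In OPM1, 200821_at falls from 926 to 99.8 while 203041_s_at and 203042_at rise, 2 rises that read lower with poly-A scaling.

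MCOLN1 rose in both lines. This gene, the calcium channel of the lysosome, rose in MM1S from 140.1 and 119 to 183 and 181 (0.41 ± 0.13, adjusted p = 0.0182) and in OPM1 from 109 and 113 to 222 and 262 (0.94 ± 0.13, adjusted p = 1.9e-06). Its MM1S rise was not called without MM1S control array 2, Zalypsis array 1 or Zalypsis array 2 (0.153, 0.0975 and 0.073). NPC1, which exports cholesterol from the lysosome, read 298 and 257 against 271 and 253 in MM1S and fell in OPM1 from 294 and 263 to 94.2 and 109.9 (-1.21 ± 0.14, adjusted p = 8.8e-08). That fall rests on its brightest probe set, since 217584_at and 238568_s_at were called higher in OPM1 (0.47 and 0.46) and the mean of its probe sets was -0.06 (adjusted p = 0.511). LAMP1, the most abundant lysosomal membrane protein together with LAMP2, was bright and not called, at 0.12 in MM1S and 0.20 in OPM1 (called without OPM1 control array 1, adjusted p = 0.0422). Its dimmer probe sets 201551_s_at and 201552_at rose in OPM1, by 1.12 and 1.02.

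By the brightest probe set of each gene, NEU1 had the largest rise of the 40 genes in both lines. It encodes a lysosomal sialidase, and it read 575 and 456 in untreated MM1S and 1453 and 1281 after Zalypsis, a 2.65-fold change of the means (1.36 ± 0.16, adjusted p = 4.8e-07). In OPM1 it went from 123 and 140.2 to 727 and 854, a 6.01-fold change (2.33 ± 0.16, adjusted p = 2.3e-11). Neither call was lost on leaving out any 1 of the 8 arrays. Among all member probe sets the largest OPM1 rise was 2.65, at a probe set of another gene. With poly-A scaling the OPM1 change was 0.43 (adjusted p = 0.183), 2.11 above the median of all genes, which that scaling moves too.

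The other hydrolases moved less. CTSA (cathepsin A), which binds and stabilizes NEU1 in the lysosome, rose in OPM1 from 432 and 468 to 686 and 677 (0.57 ± 0.16, adjusted p = 0.0035). CTSD (cathepsin D), an aspartic protease, rose there from 69.3 and 76.0 to 121 and 147 (0.66 ± 0.16, adjusted p = 0.0012). CTSB (cathepsin B), a cysteine protease, rose from 346 and 404 to 566 and 545 (0.53 ± 0.16, adjusted p = 0.0051; 0.0515 without OPM1 control array 1). With poly-A scaling these 3 read lower, at -1.43, -0.92 and -1.44. In MM1S the changes of CTSA, CTSD and CTSB were 0.26, 0.16 and 0.40, of which CTSB (adjusted p = 0.0505) was called without MM1S control array 1, OPM1 control array 1 or OPM1 control array 2 (0.0208, 0.0399 and 0.04) and CTSA without MM1S control array 1 (0.0496). GLA (alpha-galactosidase A), the enzyme lacking in Fabry disease, rose in MM1S, from 995 and 870.1 to 1418 and 1296 (0.53 ± 0.15, adjusted p = 0.0076), and read 613 and 654 against 622 and 707 in OPM1, where the arrays overlap. The GLA call was lost without MM1S control array 2 or Zalypsis array 1 (0.0547 and 0.0944). HEXA, a subunit of beta-hexosaminidase, fell in OPM1 from 127 and 180.4 to 102 and 97.4 (-0.48 ± 0.17, adjusted p = 0.0146), which was lost with quantile normalization (-0.12, adjusted p = 0.432) and without OPM1 control array 2 or Zalypsis array 2 (0.221 and 0.0712). CTSL (cathepsin L) was dim, at 47.8 to 64.3 on all 8 arrays, and not called.

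Both V-ATPase members, subunits of the pump that acidifies the lysosome, were called in OPM1, in opposite directions. ATP6V0D1, of the membrane sector, rose from 397 and 758 to 965 and 1193 (0.92 ± 0.21, adjusted p = 6.1e-04), with control arrays far apart, and read -1.10 with poly-A scaling. ATP6V1H, of the cytoplasmic sector, fell from 667 and 740.5 to 489 and 499 (-0.48 ± 0.16, adjusted p = 0.0139), which was lost without OPM1 control array 2 or Zalypsis array 1 (0.0735 and 0.0629), with quantile normalization (-0.14, adjusted p = 0.374) and with the mean of its probe sets (-0.09, adjusted p = 0.453). In MM1S ATP6V0D1 was at -0.06 with overlapping arrays, and ATP6V1H at -0.41 (adjusted p = 0.0518), called without MM1S control array 2, Zalypsis array 1, OPM1 control array 1 or OPM1 control array 2 (0.0355, 0.0171, 0.0404 and 0.0401).

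Monocyte and macrophage markers were followed because such cells are rich in lysosomes. Of the list, 5 of 7 genes had a value, and their summed signal was 59.3 to 79.6 in MM1S, 54.9 and 67.3 in untreated OPM1 and 175 and 116 in treated OPM1. The rise came from CD14, at 5.82 and 4.89 untreated and 123 and 74.4 treated, while CSF1R, LYZ, ITGAM and MARCO lay between 3.52 and 21.8 on the treated OPM1 arrays, near the floor. The summed T-cell markers (3 of 3 genes) went from 61.0 and 77.0 to 94.1 and 94.9 in OPM1, and the fibroblast markers (4 of 4) from 119 and 174 to 195 and 176. The part of the CD14 signal in the lysosomal results was not tested.

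At the level of probe sets the members gave the same mixed picture. Of the 94 member probe sets tested, 17 were higher and 18 lower in MM1S, beside 12.6% and 19.5% of all 24654 probe sets, and 36 were higher and 29 lower in OPM1, beside 22.0% and 35.9%. Without MM1S Zalypsis array 2 the 35 calls in MM1S became 23. The members had 1 to 7 probe sets, and 13 had a single one. Probe sets of 1 gene were called in opposite directions for LAMP2 and ATG7 in MM1S and for LAMP2, WIPI2, OPTN, NPC1 and HEXA in OPM1.

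These disagreements bear on how firmly a gene can be said to rise or fall. ATG7 had 2 probe sets that fell in MM1S (-0.76 and -0.72) and a dim one, 1569827_at, that rose from 15.4 and 11.0 to 35.5 and 28.2 (0.50). HEXA fell at 201765_s_at in OPM1 and rose at 243511_at, from 24.6 and 23.0 to 92.3 and 76.5 (1.06). NPC1 fell at 202679_at and rose at the dimmer 217584_at and 238568_s_at. WIPI2 fell at 202031_s_at (-1.07) and rose at 226986_at (0.55), neither of which is its brightest. ATG10 fell at 223677_at in both lines, by -1.35 and -0.82, where its brightest probe set was not called. NBR1 rose at 201383_s_at and 1568857_a_at in OPM1, by 0.70 and 1.09. The probe sets of ATG12, TFEB and ATG5 were not called against each other, and NEU1 and UVRAG had 1 each.

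The response differed between the lines for 19 of the 40 members by the test of the difference itself (OPM1 change minus MM1S change). It was higher in OPM1 for 8, where 15.3% of all genes were, and lower for 11, where 31.2% were. The largest gaps were those of RUBCNL (-4.67 ± 0.18), LAMP2 (-2.40 ± 0.22, brightest probe set), TFEB (-1.77 ± 0.20), UVRAG (-1.58 ± 0.18) and PIK3C3 (-1.31 ± 0.20). RUBCNL lay near the floor in MM1S, where no fall could be seen. After Zalypsis UVRAG was low in both lines, at means of 14.4 in MM1S and 16.7 in OPM1, and TFEB at 30.6 and 48.3. Both had started higher in OPM1, so a stronger response and a higher starting level cannot be told apart. ATG12 (0.99 ± 0.21, adjusted p = 5.2e-04), NEU1 (0.97 ± 0.23, adjusted p = 0.0012), SQSTM1 (0.75 ± 0.20, adjusted p = 0.0035) and GABARAPL2 (0.67 ± 0.21, adjusted p = 0.012) rose more in OPM1. With poly-A scaling these 4 differences read below 0, but so did most genes (median of all genes -1.55), and the MM1S side of that scaling rests on controls at background. For MAP1LC3B, GABARAP and GABARAPL1 the differences of 0.44 ± 0.24, 0.32 ± 0.20 and 0.08 ± 0.20 were not called, although their OPM1 rises were and their MM1S changes were not. Averaged over their probe sets, the differences of PIK3C3 (-0.16, adjusted p = 0.23), SQSTM1 (0.22, adjusted p = 0.235), RUBCN (-0.42, adjusted p = 0.0511), NPC1 (-0.27, adjusted p = 0.055) and ATG7 (0.12, adjusted p = 0.376) were not called. The WIPI1 difference was not called at its brightest probe set (-0.03 ± 0.21, adjusted p = 0.927), but without the shared probe sets it was called at 0.56 (adjusted p = 0.0153), a deeper fall in MM1S. Without MM1S control array 1 the count of higher differences was 5.

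Several of these differences rested on single arrays. RB1CC1 lost its call without OPM1 Zalypsis array 1 (adjusted p = 0.0674), as did GABARAPL2 without that array or MM1S Zalypsis array 2 (0.0604 and 0.0854). ATG4B lost it without MM1S Zalypsis array 1 or OPM1 Zalypsis array 1 (0.0614 and 0.105). ATG7 did so without either MM1S control array (0.0571 and 0.058), MM1S Zalypsis array 1 (0.0625) or OPM1 Zalypsis array 1 (0.217). ATP6V0D1 lost it without MM1S control array 1, OPM1 control array 1 or OPM1 Zalypsis array 2 (0.0583, 0.0751 and 0.0529). MCOLN1 lost it without MM1S control array 1, MM1S Zalypsis array 1, MM1S Zalypsis array 2, OPM1 control array 1 or OPM1 Zalypsis array 2 (0.0986, 0.0591, 0.0678, 0.0526 and 0.108). In the other direction, MAP1LC3B was called without MM1S Zalypsis array 1 or OPM1 control array 2 (0.0415 and 0.0405), and HEXA without MM1S control array 1 or OPM1 control array 1 (0.0345 and 0.0415). GABARAP and CTSD were called without MM1S control array 2 (0.0314 and 0.0074), and GLA without MM1S control array 1 (0.0426).

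Before treatment the lines already differed in these genes, about as often as in all tested genes. Untreated OPM1 was higher than untreated MM1S in 12 members (30.0%) and lower in 15 (37.5%), near the 28.6% and 35.2% of all genes. Of the 13 lysosomal members 8 were lower in OPM1, 1 was higher (ATP6V1H) and 4 were not called. The 8 included 6 of the 7 hydrolases, all but CTSL, with CTSD at 69.3 and 76.0 against 420.0 and 276 (-1.84 ± 0.16), HEXA at -1.82 ± 0.17, NEU1 at -1.74 ± 0.16, CTSB at -1.42 ± 0.16, CTSA at -1.12 ± 0.16 and GLA at -0.53 ± 0.15. Of 30 other lysosomal hydrolases, 11 were higher and 15 lower in untreated OPM1. LAMP1 was lower, at 1435 and 1166 against 3728 and 3195 (-1.39 ± 0.14). All 3 cargo receptors were lower, SQSTM1 by -2.12 ± 0.14, OPTN by -2.03 ± 0.15 and NBR1 by -1.53 ± 0.14, and WIPI1 had the lowest value of the 40 at -2.71 ± 0.15. Without the shared probe sets, those whose suffix marks probes common to several transcripts, NBR1 read 0.19 and HEXA -0.24 (adjusted p = 0.146). Higher in OPM1 were RUBCNL (6.59 ± 0.13), TFEB (2.12 ± 0.14), ATG4B (1.81 ± 0.15), UVRAG (1.64 ± 0.13) and ATP6V1H (1.27 ± 0.16). Of the ATG8 genes, MAP1LC3B, GABARAPL1 and GABARAPL2 were higher (0.86, 0.72 and 0.58) and GABARAP lower (-0.86). The calls of ATG13 (0.57) and WIPI2 (0.43) were lost without MM1S control array 2 (adjusted p of 0.0605 and 0.207), and that of WIPI2 also without OPM1 control array 2 (0.186). ATG14 (0.23) was called without OPM1 control array 2 (0.0408). With the mean of probe sets the untreated differences of ATG13 (0.02), WIPI2 (0.16), PIK3C3 (0.05), RUBCN (-0.17) and ATG3 (-0.20) were not called (adjusted p of 0.916, 0.187, 0.589, 0.215 and 0.111).

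Set against these starting levels, treated OPM1 had less of several lysosomal transcripts, and of the cargo receptor SQSTM1, than untreated MM1S even where they rose in OPM1. Treated OPM1 read 134 ± 18.5 for CTSD against 348 ± 102 in untreated MM1S, 555 ± 14.9 against 1063 ± 158 for CTSB and 1411 ± 20.6 against 3251 ± 254 for SQSTM1 (SD, n = 2). CTSA was lower too, at 681 ± 5.76 against 1026 ± 191. ATP6V0D1 was lower in the mean only, at 1079 ± 162 against 1240 ± 241. NEU1 passed the untreated MM1S level, at 791 ± 89.9 against 516 ± 83.9, and so did MCOLN1, at 242 ± 28.1 against 130 ± 14.8. These pairs of values come from different lines, were not tested and depend on the scaling between lines.

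Members that fell had long genes and members that rose had short ones, by their medians, a feature the choice of members did not use. Gene span, from the start to the end of the gene in RefSeq (GRCh38.p14), had a median of 11.4 kb for the 5 members that rose in MM1S and 112 kb for the 8 that fell. In OPM1 the medians were 12.4 kb for the 17 that rose and 67.8 kb for the 14 that fell. Over all tested genes the same medians were 14.6 kb for higher and 99.8 kb for lower genes in MM1S, and 13.6 kb and 54.9 kb in OPM1. Across the 40 members the rank correlation of span with the log2 change was -0.761 in MM1S and -0.622 in OPM1, and across 11855 tested genes it was -0.484 and -0.48. These are correlations over genes read from the same arrays, so the genes are not independent replicates.

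Of the 6 members longer than 100 kb (PIK3C3, UVRAG, ATG5, ATG7, ATG10 and ATP6V1H), 4 fell and 0 rose in each line, as did 63.1% of all tested genes of that length in MM1S and 65.0% in OPM1. UVRAG, at 329 kb the longest of the 40, had the deepest fall in MM1S. ATG7, at 304 kb, fell in MM1S but not in OPM1, and ATG10, at 284 kb, was called in neither line from its brightest probe set. Of the 34 members up to 100 kb, 17 rose and 10 fell in OPM1, where 29.0% of all tested genes of that length were higher and 33.2% lower, with NEU1 (5.16 kb), GABARAP (2.44 kb) and ATG12 (13.4 kb) among the rises, and all the rises but NEU1 read lower with poly-A scaling. Falls were not limited to long genes: RUBCNL spans 55.4 kb, TFEB 52.2 kb, LAMP2 43.2 kb and ATG3 29.5 kb.

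**Figure D4:**
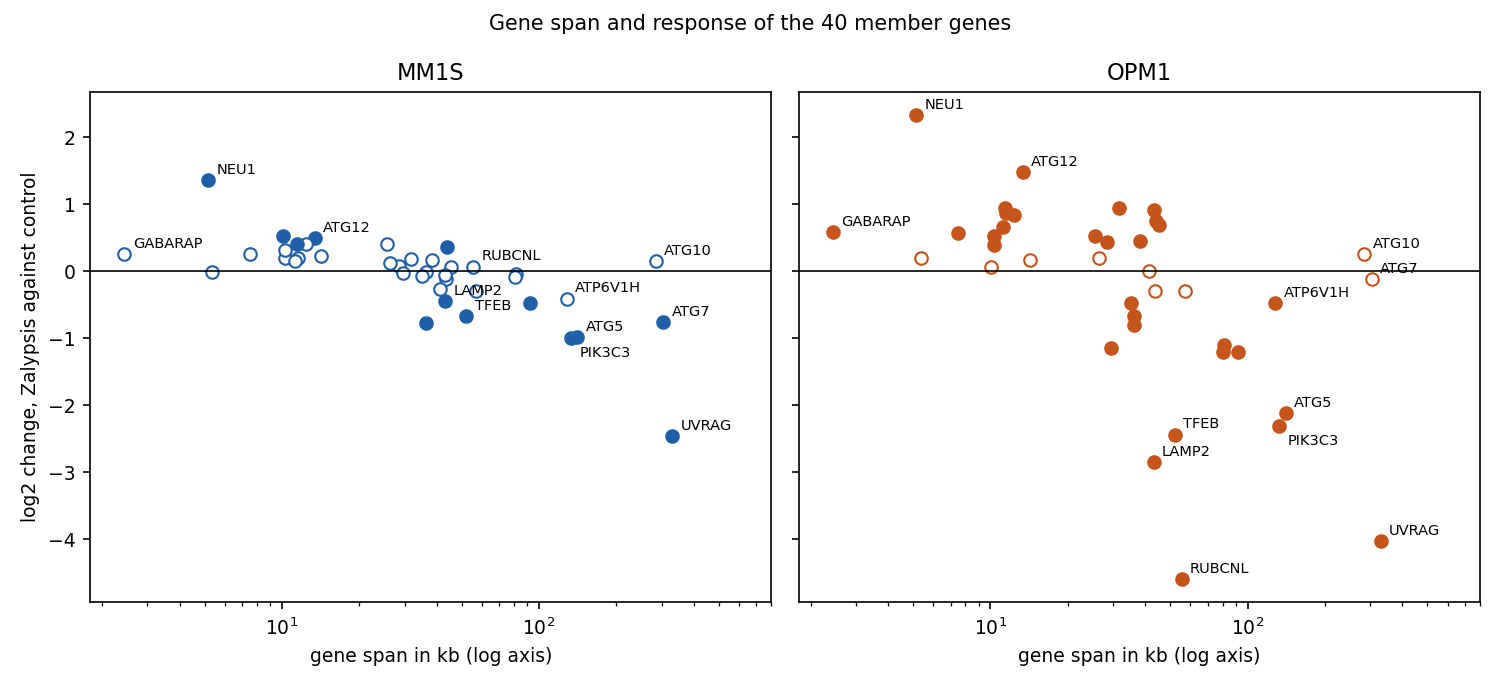
Each point is 1 of the 40 genes, with its span in kb on a log axis and its log2 change on the vertical axis, MM1S on the left and OPM1 on the right, filled where called. Genes over 100 kb lie at or under 0 except ATG10 (0.15 and 0.26), and the points furthest up are NEU1 at 5.16 kb in both lines; with poly-A scaling the OPM1 points shift down together.

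Other genes of the pathway, counted from lists that do not overlap the 40, moved in both directions too, and are to be read against the 16.4% higher and 21.1% lower of all genes in MM1S and the 25.4% and 38.5% in OPM1. Of 36 tested other autophagy genes, 11 rose and 10 fell in MM1S (30.6% and 27.8%) and 11 rose and 17 fell in OPM1 (30.6% and 47.2%). RAB7A, the GTPase that brings autophagosome and lysosome together, fell from 1279 and 1236 to 635 and 621 in MM1S (-0.97 ± 0.15) and from 928 and 919 to 202 and 261 in OPM1 (-1.87 ± 0.15), but without the shared probe sets it read -0.01 and 0.43. NRBF2, a partner of the PI3-kinase complex, rose in OPM1 from 353 and 320.1 to 802 and 766 (1.15 ± 0.15), and ATG16L2, a relative of ATG16L1, rose in MM1S from 94.4 and 101 to 232 and 304 (1.20 ± 0.13). Each was also called higher in the other line, NRBF2 at 0.58 ± 0.15 in MM1S and ATG16L2 at 0.50 ± 0.13 in OPM1. NRBF2 read -0.84 in OPM1 with poly-A scaling.

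Among 30 other lysosomal hydrolases, 8 rose and 4 fell in MM1S (26.7% and 13.3%, all genes 16.4% and 21.1%) and 7 rose and 10 fell in OPM1 (23.3% and 33.3%, all genes 25.4% and 38.5%). SMPD1 (acid sphingomyelinase) rose in OPM1 from 33.0 and 41.6 to 259 and 219.7 (1.97 ± 0.15), and at 0.43 it was not called with poly-A scaling. IDS (iduronate sulfatase) fell there from 1199 and 989 to 218 and 231 (-2.13 ± 0.16). In MM1S the largest rise was that of FUCA1 (alpha-fucosidase), from 444 and 385 to 947 and 874 (1.08 ± 0.14), and the largest fall that of MANBA (beta-mannosidase), from 134 and 132 to 66.7 and 60.8 (-0.78 ± 0.13). SMPD1 also rose in MM1S (0.84 ± 0.15), where IDS was not called (-0.04). MANBA also fell in OPM1 (-1.68 ± 0.13), where FUCA1 was not called (-0.19).

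Of 26 tested membrane and sorting genes, 3 rose and 8 fell in MM1S (11.5% and 30.8%, all genes 16.4% and 21.1%) and 7 rose and 11 fell in OPM1 (26.9% and 42.3%, all genes 25.4% and 38.5%). IGF2R, the mannose 6-phosphate receptor that carries hydrolases to the lysosome, fell in OPM1 from 698 and 775 to 44.2 and 54.6 (-3.24 ± 0.15), and GNPTAB, which makes the mannose 6-phosphate tag, fell in MM1S from 1815 and 1704 to 779 and 827 (-1.10 ± 0.14; -0.16 without the shared probe sets). GNPTG, the other gene of that enzyme, rose in MM1S (0.57 ± 0.14). NPC2, the soluble partner of NPC1, rose in OPM1 from 137 and 175 to 569 and 436 (1.50 ± 0.18; -0.38 with poly-A scaling). Each of these genes was called in the same direction in the other line. In MM1S IGF2R was at -1.10 ± 0.15 and NPC2 at 0.48 ± 0.18. In OPM1 GNPTAB was at -1.28 ± 0.14 and GNPTG at 0.81 ± 0.14.

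Of 14 other V-ATPase subunits, 1 rose and 1 fell in MM1S (7.14% each, all genes 16.4% and 21.1%) and 7 rose and 4 fell in OPM1 (50.0% and 28.6%, all genes 25.4% and 38.5%). ATP6V1B2 rose in both lines, by 0.62 ± 0.16 and 1.44 ± 0.16, the second from 445 and 520.0 to 1365 and 1348, and read -0.59 in OPM1 with poly-A scaling. Its MM1S rise was not called without MM1S control array 2 or Zalypsis array 1 (adjusted p of 0.079 and 0.0714). ATP6V1A, its partner in the catalytic ring, fell in OPM1 from 2400.4 and 2230.1 to 529.6 and 528 (-2.06 ± 0.14). ATP6V0A1 fell in MM1S (-0.51 ± 0.15), a call lost without MM1S control array 1 or Zalypsis array 2 (0.15 and 0.0814). In OPM1 it was called lower too, at -1.45 ± 0.15, while ATP6V1A was not called in MM1S (-0.08).

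Regulators upstream of TFEB and ULK1 were the last list, with 8 rises and 8 falls among 31 tested genes in MM1S (25.8% each, all genes 16.4% and 21.1%) and 13 and 10 in OPM1 (41.9% and 32.3%, all genes 25.4% and 38.5%). DEPTOR, an inhibitor of mTOR known to be abundant in some myelomas, fell in MM1S from 3102 and 3026 to 377 and 359 (-2.95 ± 0.13) and was at 58.4 and 62.6 in untreated OPM1. RRAGD, a Rag GTPase that recruits mTORC1 to the lysosome, fell in OPM1 from 1028 and 909 to 173 and 182 (-2.25 ± 0.15) and was not called in MM1S (-0.30). FNIP1, a partner of folliculin, rose at its brightest probe set by 1.76 ± 0.15 in MM1S and 2.57 ± 0.15 in OPM1. Its brightest probe set that is not shared fell, at -0.80 in MM1S and -1.92 in OPM1, so no direction is given for the gene.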

How the data were processed

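RNA from 8 samples was labelled in 2 cycles from 100 ng of total RNA and hybridised, per the labels' protocols. The deposited values are intensity values made by the authors with dChip, per the labels, on a linear scale of 1 value per probe set, with neither its version nor its normalization stated in the sources used here. Each gene was read from its brightest probe set of 1 symbol. On the log2(value + 32) scale, limma 3.58.1 in R 4.3.3 (lmFit, eBayes with trend, Benjamini-Hochberg) was fitted over 4 group means (4 residual degrees of freedom), after the dimmest 40% of genes were left out, which kept 11865 of 19775. The script was tested on simulated data. Described genes are all the members, and from 5 further lists the largest rise and fall in each line. Members and lists were chosen with earlier results of these data known. Spans and promoters come from RefSeq (GRCh38.p14). Arrays are few, which limits the precision. Alternatives were quantile and poly-A scaling, other offsets and filters, probe set rules, a replicate block and leaving out each array.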

Additional observations from a re-analysis of the deposited data

Results flagged for a closer look

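For 19 genes the change with Zalypsis differed between the lines by limma's test of the difference (adjusted p under 0.05), given here as the OPM1 minus the MM1S log2 change. Of the 40 members 8 were higher (20.0%) and 11 lower (27.5%), near the 15.3% and 31.2% of all tested genes. Several of these calls rested on single arrays, and RUBCNL lay near the floor in MM1S, as given above. Among the initiation and PI3-kinase genes the values were -0.74 for RB1CC1, -1.31 for PIK3C3, 0.62 for ATG14, -1.58 for UVRAG, -1.06 for RUBCN and -4.67 for RUBCNL. The conjugation genes gave -1.10 for ATG3, -0.66 for ATG4B, -1.14 for ATG5, 0.64 for ATG7 and 0.99 for ATG12. GABARAPL2 stood at 0.67, SQSTM1 at 0.75 and TFEB at -1.77. On the lysosomal side the values were -2.40 for LAMP2, 0.53 for MCOLN1, -1.14 for NPC1, 0.97 for NEU1 and 0.99 for ATP6V0D1.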

How the results depend on the processing

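Counts of called members moved most with scaling. Members higher in MM1S numbered 11 with quantile normalization, 1 with poly-A scaling, 8 with the mean of probe sets, 1 by the 2-fold rule and 2 to 7 on leaving out 1 array; the 2-fold rule gave 5 lower. Called member probe sets in MM1S numbered 20 with poly-A scaling, 18 by the 2-fold rule and 23 to 38 on leaving out 1 array. In OPM1, poly-A scaling gave 0 higher and 38 lower members, the 2-fold rule 4 higher and 38 called probe sets, and leaving out shared probe sets (27 members tested) 9 lower. Response differences called higher numbered 18 with quantile normalization, 0 with poly-A scaling, 3 by the 2-fold rule and 5 to 9 on leaving out 1 array, and poly-A scaling gave 36 lower and 79 called probe sets. Between untreated lines, 4 were higher without shared probe sets and 6 by the 2-fold rule, which called 38 probe sets. Poly-A controls lay at background on the MM1S arrays, so the poly-A values of MM1S and of the response difference cannot be read as a change of the genes, and the untreated lines were not scaled that way; the median response difference of all genes under that scaling was -1.55.

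With the replicate block, 9 members were higher and 9 lower in MM1S, 17 and 15 in OPM1, 10 and 12 for the response difference and 12 and 16 between untreated lines. Same-numbered arrays had deviations that correlated at 0.212 in MM1S and 0.209 in OPM1 across genes, with only 2 pairs a line, so the numbers were not taken to pair the arrays.

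Some single genes changed sign. With poly-A scaling the OPM1 changes were -0.84 for ULK1, -1.86 for BECN1, -0.88 for ATG14, -1.22 for ATG9A, -0.93 for ATG10, -0.56 for ATG12, -0.79 for ATG16L1, -1.23 for MAP1LC3B, -1.49 for GABARAP, -1.32 for GABARAPL1, -1.20 for GABARAPL2, -1.11 for SQSTM1, -1.31 for OPTN, -1.87 for LAMP1, -0.82 for MCOLN1, -1.43 for CTSA, -1.44 for CTSB, -0.92 for CTSD, -1.11 for CTSL, -1.94 for GLA, -1.10 for ATP6V0D1, -0.84 for NRBF2, -0.38 for NPC2, -0.59 for ATP6V1B2, and -0.64 and -0.76 for LAMP2 203041_s_at and 203042_at. The response differences with poly-A scaling were -0.79 for ULK1, -1.70 for ATG13, -0.81 for ATG14, -1.23 for ATG9A, -0.58 for ATG7, -0.97 for ATG10, -0.83 for ATG12, -1.03 for ATG16L1, -1.42 for MAP1LC3B, -1.53 for GABARAP, -1.47 for GABARAPL1, -1.18 for GABARAPL2, -1.07 for SQSTM1, -1.26 for OPTN, -1.16 for NBR1, -1.76 for LAMP1, -1.05 for MCOLN1, -0.71 for NEU1, -1.47 for CTSA, -1.62 for CTSB, -0.87 for CTSD, -0.97 for CTSL, -0.82 for ATP6V0D1 and -1.25 for LAMP2 203041_s_at. Without shared probe sets, OPM1 changes were 0.55 for WIPI2, -0.96 for OPTN, 0.11 for HEXA, 0.43 for RAB7A and -1.92 for FNIP1, the MM1S change of FNIP1 was -0.80, the response differences of WIPI1 and OPTN were 0.56 (a call, adjusted p = 0.0153) and -0.91, and the untreated differences of WIPI2 and NBR1 were -0.23 and 0.19. With the mean of probe sets, MM1S changes were -0.48 for ATG10, 0.64 for LAMP2 and 0.21 for NPC1, OPM1 changes were -0.25 for OPTN, 0.52 for NBR1, 0.22 for HEXA and -0.16 for FNIP1, and untreated differences were -0.26 for ATG10 and -0.24 for NPC1. Quantile normalization gave 0.39 for NBR1 in OPM1. Beyond these constructions the cause was not tested. Dim genes such as ATG7, ATG10, ATG16L1, ULK1 and CTSL lie close to background, where the added 32 shrinks a change.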
